A study of Mus musculus with 23 samples.

Results

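Brain RNA of Csf1R-G793A mice fed the kinase inhibitor PLX3397 was compared with that of Csf1R-G793A mice fed control chow, which asks what the inhibitor does when the colony-stimulating factor 1 receptor (CSF1R), its main target, carries a substitution studied for resistance. The comparison was chosen by the sample titles and holds 8 of the 23 libraries of the series. The 4 G793A PLX3397 libraries came from mutant mice on chow with PLX3397 at 290 mg/kg for 14 days, and the 4 G793A control libraries from mutant mice on control chow. For side-by-side values there were 4 libraries of G793A mice on PLX5622, a second CSF1R inhibitor given at another chow dose (1200 mg/kg), 4 of wild-type (WT) mice on PLX3397, 4 of WT mice on PLX5622 and 3 of WT mice on control chow. All mice were C57BL/6J. The substitution is named in the labels without its zygosity or how it was made, and gene counts carry no allele, so the genotype was not checked here. The labels give brain as the tissue, with no region, sex or age, and nothing in them states that different libraries are different mice. The p-values therefore set group differences against the spread among these samples, which may be technical, and need not extend to other mice.

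CSF1R is a type III receptor tyrosine kinase, the family that also holds KIT, FLT3 and the platelet-derived growth factor receptors PDGFRA and PDGFRB. Microglia and the macrophages of the brain borders depend on CSF1R signalling, through its ligands CSF1 and interleukin 34, for their survival. PDGFRA is the receptor by which oligodendrocyte precursor cells, the dividing glia that give rise to myelinating oligodendrocytes, respond to PDGF-A. PLX3397 is known to act on KIT and FLT3 as well as on CSF1R.

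Depth in mega-counts (M) was 26.3 M to 43.3 M in G793A PLX3397 libraries and 30.7 M to 48.2 M in G793A control libraries. Neuronal genes marked the samples as brain, since all 12 were detected in both groups and summed to between 8280 and 8770 CPM (counts-per-million) in G793A PLX3397 libraries and between 7280 and 8480 CPM in G793A control libraries. Pituitary genes summed to at most 10.5 CPM in G793A PLX3397 libraries and 7.52 CPM in G793A control libraries. Hypothalamic genes ranged more widely, from 7.16 to 75.9 CPM in G793A PLX3397 libraries and from 35.1 to 114 CPM in G793A control libraries, and G793A PLX3397 replicate 4 was the lowest. Replicates 2 and 4 of the G793A PLX3397 group stood apart by high transcripts of neuronal activity genes, whose values are given with those genes. G793A PLX5622 replicate 2 stood apart by 7 genes of the cerebellum, which summed to 594 CPM there and to at most 83.1 CPM in the other 3 libraries of its group. Gene levels are CPM after TMM scaling, and changes are log2 fold changes ± SE from edgeR's quasi-likelihood model over all 23 libraries.

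Of 16209 genes tested, 1 passed an adjusted p of 0.05 in G793A mice on PLX3397 (0.00617% of genes), and it was Pdgfra, which fell. Pdgfra lies on mouse chromosome 5. Its promoter is shown because this is the gene the comparison turns on. The sequence is RefSeq's, on the plus strand of build GRCm38.p6 at chr5:75152001-75152300, from 250 bases before to 50 bases after the gene's start, whereas the counts were made with GRCm39.

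Pdgfra promoter: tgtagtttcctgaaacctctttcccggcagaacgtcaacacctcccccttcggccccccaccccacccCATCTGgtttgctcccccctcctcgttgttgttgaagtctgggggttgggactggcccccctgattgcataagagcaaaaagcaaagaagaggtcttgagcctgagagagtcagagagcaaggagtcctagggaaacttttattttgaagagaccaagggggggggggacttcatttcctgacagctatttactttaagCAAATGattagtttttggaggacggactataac

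The capitals mark 2 E-boxes, the pattern CANNTG bound by basic helix-loop-helix factors such as OLIG2, searched on both strands. An E-box was found in 72.3% of 32851 mouse promoters of this length. The SOX core ACAAAG, searched on both strands, had no match in this window and had one in 18.7% of the promoters. The E-boxes overlap no other motif searched.

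Pdgfra stood at 48.2, 50.7, 47.9 and 35.9 CPM in the 4 G793A PLX3397 libraries, against 62.4, 66.8, 67.1 and 69.1 CPM in the 4 G793A control libraries. All 4 libraries of mice on PLX3397 lay below all 4 on control chow. The means were 45.7 ± 6.66 CPM in G793A mice on PLX3397 and 66.3 ± 2.83 CPM in G793A controls (SD, n = 4 each), so 68.8% of the control level was left. Pdgfra fell by 0.54 ± 0.08 on the log2 scale (95% interval −0.70 to −0.38, edgeR adjusted p = 0.00678), and an exact permutation test of the 8 libraries gave p = 0.0286, the smallest that 4 against 4 allows. Without G793A control replicate 4 the adjusted p was 0.0535, and in a fit of the compared groups alone it was 0.697 at a log2 fold change of −0.54. Leaving out G793A PLX3397 replicate 4, the lowest library, kept the call. These are bulk samples, in which fewer cells of a type and less RNA per cell cannot be told apart, for this gene and for every cell type marker below.

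The other diets and the other genotype place that level. Pdgfra stood at 65.0, 58.4, 70.5 and 69.8 CPM in G793A mice on PLX5622, a range that spans that of the G793A controls. PLX5622 differed from control chow in G793A mice by −0.01 (95% interval −0.17 to 0.15), in a comparison where 0 genes passed in edgeR (0%), 2639 had an unadjusted p under 0.05 (16.3%) and DESeq2 called 215. Against G793A PLX5622 libraries the G793A PLX3397 libraries were lower by a log2 fold change of −0.53 (edgeR adjusted p = 0.00899), the only gene of 16209 to pass in that comparison (0.00617%). The chow doses of the inhibitors differ, and without G793A PLX5622 replicate 3 or replicate 4 the adjusted p was 0.0833 or 0.0856. The call was kept without G793A PLX5622 replicate 2, the library high in cerebellar genes and lowest of its group for Pdgfra. In WT mice Pdgfra stood at 56.8, 50.3, 56.6 and 52.6 CPM on PLX3397, against 63.6, 67.0 and 69.5 CPM on control chow, and the groups did not overlap. That change, −0.30 ± 0.08, missed the threshold in edgeR (adjusted p = 0.0716) and passed it in DESeq2 (adjusted p = 0.0237). The G793A effect minus the WT effect was −0.23 (95% interval −0.47 to 0.003, adjusted p = 1), so a difference between the genotypes was not shown. On PLX5622, WT mice had 67.4, 68.3, 68.3 and 66.6 CPM.

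**Figure D1:**
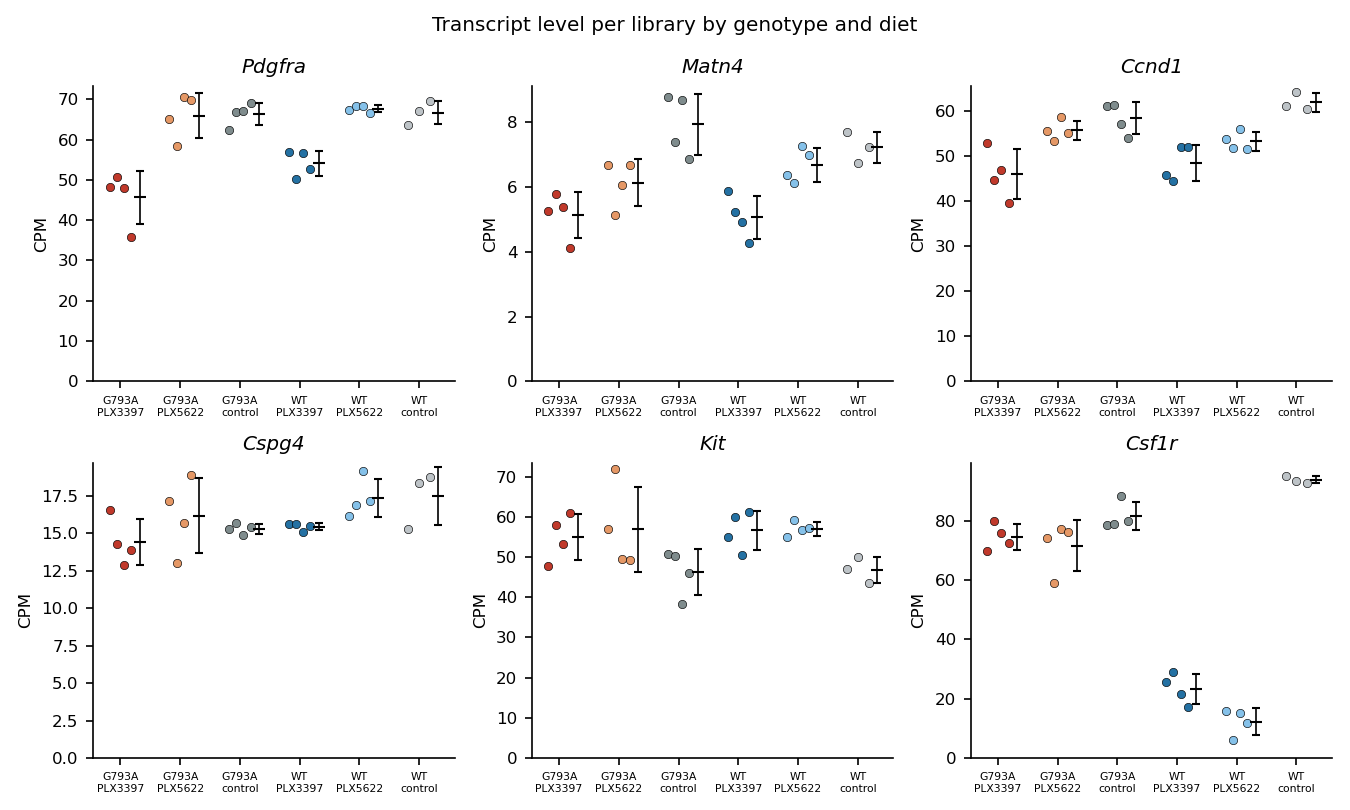
Level of 6 genes in each library (points, CPM) by genotype and diet, with the group mean and SD beside the points. The 4 G793A PLX3397 libraries lie at 35.9 to 50.7 CPM of Pdgfra, below every G793A control library, while Csf1r is at 69.9 to 79.7 CPM in the same libraries and at 17.0 to 28.9 CPM in WT mice on PLX3397.

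Beyond Pdgfra no gene reached the threshold. At an unadjusted p under 0.05 there were 1899 genes (11.7%), with 975 higher (6.02%) and 924 lower (5.7%). If no gene differed, 810 would be expected. The count hung on single libraries, at 935 without G793A control replicate 3 and 2945 without G793A control replicate 2. Without G793A PLX3397 replicate 4 it was 1054, and with only the compared groups 1081. Genes are not independent, and whether chance gives such an excess was not tested. Counts at this p for the lists below stand beside that 11.7%. The groups did not overlap for 312 genes higher (1.92%) and 343 lower (2.12%) on PLX3397. Genes said below not to overlap in this comparison stand beside these shares. The count of genes past the threshold depended on the processing. DESeq2 called 18 genes, 7 higher and 11 lower, and edgeR without G793A control replicate 2 called 23, with 16 higher and 7 lower. Fits of the compared groups alone, of the 3 G793A groups alone, without G793A control replicate 4, or on the authors' variance-stabilised values called none. Long transcripts tended to stand slightly higher on PLX3397, with a median log2 fold change of 0.04 in the fifth of genes with the longest transcripts and of −0.02 in the fifth with the shortest. With each library's trend along length and GC content removed, Pdgfra was still the one gene called.

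Among oligodendrocyte precursor genes, Pdgfra was 1 of 15 to fall and 4 more had an unadjusted p under 0.05, all lower on PLX3397. Of the 15, 13 had a log2 fold change below 0, against 49% of all genes tested, and the median was −0.12, against 0.003 for all genes. The groups did not overlap for 3 of them, Pdgfra, Matn4 and Emid1, all lower, as were 2.12% of all genes without overlap. As a mean of log2 levels set to 0 in G793A controls, the list stood at −0.09, −0.14, −0.12 and −0.37 in the 4 G793A PLX3397 libraries and at 0.00, −0.04, 0.01 and 0.03 in the 4 G793A control libraries. Replicate 4 on PLX3397 was the lowest, and without it the median was −0.07. The summed level, which the most abundant members dominate, did overlap, at 780 to 881 CPM in G793A PLX3397 libraries and 821 to 936 CPM in G793A control libraries. In WT mice on PLX3397 the median of the list was −0.18, with 1 of 15 past the threshold.

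Matn4 encodes matrilin 4, an extracellular matrix adaptor made by precursor cells. Its level was 5.26, 5.77, 5.38 and 4.12 CPM in G793A PLX3397 libraries, against 8.78, 7.38, 8.67 and 6.87 CPM in G793A control libraries. No library overlapped, and the difference of −0.62 ± 0.12 missed the threshold (adjusted p = 0.169), except without G793A control replicate 2 (adjusted p = 0.0388). WT mice had 5.87, 5.21, 4.92 and 4.27 CPM on PLX3397 and 7.70, 6.74 and 7.23 CPM on control chow, where Matn4 fell by 0.51 ± 0.13 (adjusted p = 0.034). The effects in the genotypes differed by −0.11 (G793A minus WT, 95% interval −0.46 to 0.25). G793A mice on PLX5622 had 6.66, 5.12, 6.07 and 6.66 CPM, also below every G793A control library. Against PLX5622 in G793A mice, the log2 fold change of Matn4 on PLX3397 ran from −0.326 to −0.165 with a library left out.

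The remaining precursor genes with an unadjusted p under 0.05 encode products of different kinds. C1ql1, a secreted C1q-like protein, had a log2 fold change of −0.35 ± 0.13, with 3.89 to 6.58 CPM in G793A PLX3397 libraries and 6.35 to 7.85 CPM in G793A control libraries. Cacng4, an auxiliary subunit of AMPA receptors, stood at 27.1 to 44.4 CPM in G793A PLX3397 libraries and 44.4 to 47.0 CPM in G793A control libraries, a log2 fold change of −0.31 ± 0.12. Olig1, a transcription factor of the lineage, had −0.19 ± 0.07. None of the 3 passed, with adjusted p-values of 0.364, 0.373 and 0.36.

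Other defining genes of the same cells had unadjusted p-values above 0.05. Cspg4, which encodes the NG2 proteoglycan by which these cells are often stained, had 16.6, 14.3, 12.9 and 13.9 CPM in G793A PLX3397 libraries, against 15.3, 15.7, 14.9 and 15.4 CPM in G793A control libraries. The groups overlapped, at −0.09 ± 0.09 (95% interval −0.28 to 0.11). Sox10, a transcription factor of the whole oligodendrocyte lineage, had −0.02 ± 0.07 (−0.15 to 0.12), and its sign changed with some alternatives. Vcan, the proteoglycan versican, had −0.15 ± 0.09, and Emid1, an EMI-domain protein of the matrix, had −0.32 ± 0.16. The groups did not overlap for Emid1, at 1.87 to 2.93 CPM in G793A PLX3397 libraries and 3.02 to 3.58 CPM in G793A control libraries. Lhfpl3, Sox6, Olig2, Ptprz1 and Tnr lay between −0.12 and 0.12.

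Snx22, a sorting nexin enriched in precursor cells, was not on the list. It was named by its small p among genes whose groups did not overlap. Its levels were 5.12, 4.34, 4.31 and 2.67 CPM in G793A PLX3397 libraries and 6.03, 5.81, 6.53 and 6.75 CPM in G793A control libraries. The difference of −0.60 ± 0.13 had an adjusted p of 0.209. In WT mice Snx22 differed by −0.50 ± 0.14 (adjusted p = 0.0929).

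**Figure D2:**
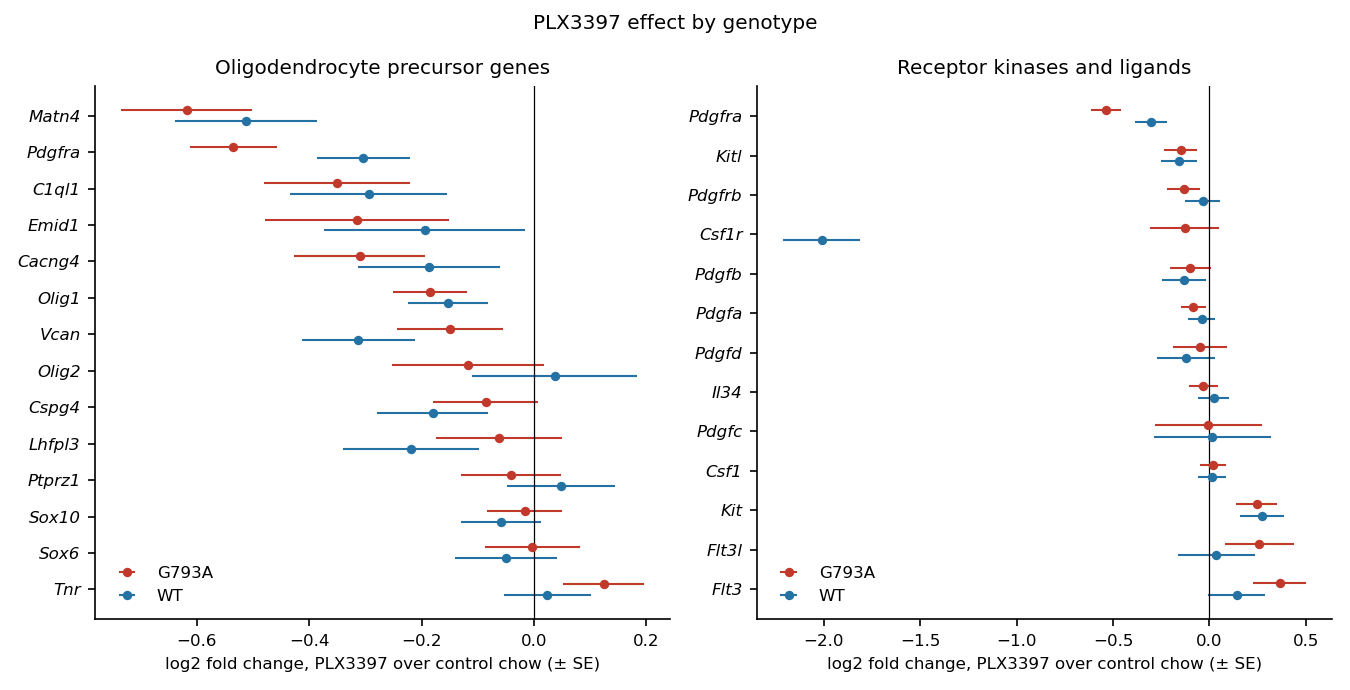
Log2 fold change of PLX3397 over control chow (points) with its SE (bars) in G793A and WT mice, for 14 of the 15 oligodendrocyte precursor genes and the 13 type III receptor kinases and their ligands. Matn4 and Pdgfra lie farthest below 0 in G793A mice, at −0.62 and −0.54, and Csf1r lies at −0.13 in G793A mice and −2.01 in WT mice.

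Of 10 genes of committed, differentiating precursors, none passed in edgeR, DESeq2 or limma-voom, 2 were lower and 1 higher at an unadjusted p under 0.05, and the median was −0.11. Neu4, a sialidase of immature oligodendrocytes, stood at 6.61, 7.37, 5.55 and 3.01 CPM in G793A PLX3397 libraries and 8.37, 7.03, 9.39 and 7.66 CPM in G793A control libraries (−0.51 ± 0.16, adjusted p = 0.358). Gpr17, a receptor that marks committed precursors, stood at 54.1, 61.0, 47.4 and 32.9 CPM in G793A PLX3397 libraries and 68.0, 60.9, 59.9 and 55.8 CPM in G793A control libraries (−0.32 ± 0.14). The groups overlapped for both genes, and replicate 4 on PLX3397 was the lowest library for each. Mycl, a MYC-family transcription factor, was the higher one at 0.23 ± 0.10. Of 13 myelin genes of mature oligodendrocytes 9 were above 0 and the median was 0.13. The myelin protein gene Mal was the 1 of them with an unadjusted p under 0.05, at 0.27 ± 0.11 (adjusted p = 0.391), and none passed in edgeR, DESeq2 or limma-voom. Mal stood at 366, 334, 311 and 451 CPM in G793A PLX3397 libraries and at 302, 259, 368 and 289 CPM in G793A control libraries. Replicate 4 on PLX3397 was the highest library, as it was for the myelin genes Mobp, Mag and Cnp, and without it Mal had 0.15.

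Ccnd1 encodes cyclin D1, which drives entry into the division cycle and is a target of the ERK pathway below receptor kinases. It had 53.0, 44.7, 47.0 and 39.7 CPM in G793A PLX3397 libraries, against 61.3, 61.4, 57.3 and 54.1 CPM in G793A control libraries. The groups did not overlap. The difference of −0.34 ± 0.07 missed the threshold in edgeR (adjusted p = 0.194) and passed in DESeq2 (adjusted p = 0.00662) and in edgeR without G793A PLX3397 replicate 1 (adjusted p = 0.0133). In WT mice Ccnd1 fell by 0.35 ± 0.07 on PLX3397 (adjusted p = 0.0082), and the effects in the genotypes differed by 0.01 (G793A minus WT, 95% interval −0.20 to 0.22), with a sign that some alternatives turned.

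Other ERK targets did not share one direction. Of the 11 feedback genes and targets, Ccnd1 among them, 1 was higher and 2 were lower at an unadjusted p under 0.05, with a median of 0.05. Dusp4, a phosphatase that inactivates ERK, stood at 13.5, 14.2, 12.7 and 17.9 CPM in G793A PLX3397 libraries, above all of the 10.7, 11.4, 11.6 and 10.3 CPM in G793A control libraries (0.40 ± 0.13, adjusted p = 0.36). Etv4, an ETS factor induced by ERK, had −0.37 ± 0.14. Dusp6, another ERK phosphatase, had 0.59 ± 0.30 with 114 and 163 CPM in replicates 2 and 4 on PLX3397 and at most 81.2 CPM in any other library of both groups. Among 12 proliferation genes, such as Mki67 and Top2a, none had an unadjusted p under 0.05 and the median was −0.04.

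Of the 13 type III receptor kinases and their ligands, Pdgfra alone passed. Kit, the stem cell factor receptor, was on the opposite side. It had 47.8, 57.9, 53.4 and 61.1 CPM in G793A PLX3397 libraries and 50.8, 50.3, 38.4 and 46.0 CPM in G793A control libraries, a log2 fold change of 0.24 ± 0.11 (adjusted p = 0.392). Flt3, the FLT3 ligand receptor, had 6.74, 7.98, 8.02 and 9.03 CPM in G793A PLX3397 libraries and 6.92, 5.74, 6.07 and 5.89 CPM in G793A control libraries (0.36 ± 0.14, adjusted p = 0.364). For both receptors the groups overlapped. In WT mice PLX3397 gave 0.27 ± 0.11 for Kit and 0.14 ± 0.15 for Flt3, and in G793A mice PLX5622 gave 0.29 and 0.32, neither past the threshold. Without G793A PLX5622 replicate 2, the library high in cerebellar genes, those became 0.16 for Kit and 0.14 for Flt3. Pdgfrb, the receptor of pericytes, had −0.13 ± 0.08 (95% interval −0.31 to 0.04).

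None of the ligands reached an unadjusted p of 0.05. Pdgfa, whose product binds PDGFRA, had −0.08 ± 0.06 (95% interval −0.22 to 0.05). The CSF1R ligand Csf1 had 0.02 ± 0.07 (−0.12 to 0.16) and Il34 had −0.03 ± 0.07 (−0.18 to 0.12), and the signs of both turned under some alternatives. Kitl, the ligand of KIT, had −0.15 ± 0.09 (−0.33 to 0.03). The FLT3 ligand gene Flt3l stood at 1.45 to 2.02 CPM in G793A PLX3397 libraries and at most 1.59 CPM in G793A control libraries, a log2 fold change of 0.26 with a wide interval (−0.11 to 0.63). Among the other PDGF genes, Pdgfb had −0.10 (−0.32 to 0.12) and Pdgfd −0.05 (−0.34 to 0.24). Pdgfc had −0.01 (−0.58 to 0.57) and ranged from 2.63 to 5.15 CPM among G793A PLX3397 libraries.

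Csf1r transcript stood at 69.9, 79.7, 75.7 and 72.4 CPM in G793A PLX3397 libraries, against 78.5, 78.9, 88.4 and 79.8 CPM in G793A control libraries. One PLX3397 library lay among the controls and the other 3 lay below them. The log2 fold change was −0.13 ± 0.18 (95% interval −0.51 to 0.25, adjusted p = 0.814), and an exact permutation test gave p = 0.0857. WT mice had 25.5, 28.9, 21.6 and 17.0 CPM on PLX3397, against 95.1, 93.4 and 92.8 CPM on control chow, and Csf1r fell by 2.01 ± 0.20 there (adjusted p = 2.24e-06). The effect in G793A mice was higher than that in WT mice by 1.88 (95% interval 1.32 to 2.44, adjusted p = 0.000803).

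Microglial and macrophage genes lay slightly below 0 in G793A mice on PLX3397, and none of the members of these lists passed the threshold in edgeR, DESeq2 or limma-voom. All 15 homeostatic microglia genes had log2 fold changes below 0, with a median of −0.22. At an unadjusted p under 0.05 there were 2 (13.3%, against 11.7% of all genes). They summed to between 335 and 394 CPM in G793A PLX3397 libraries and between 373 and 468 CPM in G793A control libraries. Without G793A control replicate 3, the highest for Csf1r, the median was −0.14. In G793A mice on PLX5622, against the same controls, all 15 were also below 0, with a median of −0.24. PLX3397 against PLX5622 in G793A mice gave a median of 0.06, so the shift was not particular to PLX3397. In WT mice 14 of the 15 fell on PLX3397, with a median of −2.16, in a comparison where 1.52% of genes passed. The test of the difference between genotypes passed for 14 of the 15 (0.555% of all genes).

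P2ry12, the purinergic receptor of microglial processes, had 21.6, 28.2, 27.6 and 20.4 CPM in G793A PLX3397 libraries and 26.5, 29.7, 33.2 and 33.2 CPM in G793A control libraries (−0.32 ± 0.16, adjusted p = 0.443). The groups overlapped. In WT mice it stood at 6.63, 6.66, 5.89 and 4.78 CPM on PLX3397, against 35.7, 38.4 and 33.8 CPM on control chow. The effect on P2ry12 in G793A mice exceeded that in WT mice by 2.26 (95% interval 1.75 to 2.78, adjusted p = 3.44e-05). Siglech, a microglial lectin, had −0.40 ± 0.15 in G793A mice, one of the 2 members with an unadjusted p under 0.05.

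Pan-myeloid genes mark the same cells and others of the lineage. All 16 were below 0, with a median of −0.27 and 3 at an unadjusted p under 0.05, and they summed to between 221 and 250 CPM in G793A PLX3397 libraries and between 245 and 332 CPM in G793A control libraries. The median was −0.15 without G793A control replicate 3. In G793A mice on PLX5622, against the same controls, 15 of the 16 were below 0, with a median of −0.29. PLX3397 against PLX5622 gave a median of 0.05. Ly86, a partner of a Toll-like receptor homologue, had −0.45 ± 0.19 without overlap, and Aif1, which encodes the marker IBA1, had −0.34 ± 0.16 without overlap. In WT mice 15 of the 16 fell, with a median of −2.01, and the difference between genotypes passed for 14. Since both lists mark microglia, their counts are not separate evidence.

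Genes of border-associated macrophages, which line vessels and meninges, had the lowest median of the myeloid lists in G793A mice, −0.42, with 10 of 10 below 0 and 4 at an unadjusted p under 0.05. They summed to 19.9, 18.5, 17.5 and 18.4 CPM in G793A PLX3397 libraries, against 22.6, 22.5, 26.5 and 25.3 CPM in G793A control libraries, without overlap. Mrc1, the mannose receptor, had 2.89, 2.67, 2.79 and 2.55 CPM in G793A PLX3397 libraries and 3.09, 3.91, 4.01 and 4.95 CPM in G793A control libraries. Every PLX3397 library lay below every control library, at −0.55 ± 0.22 (adjusted p = 0.381). Stab1, a scavenger receptor, had 11.1, 9.90, 9.50 and 10.2 CPM in G793A PLX3397 libraries and 11.6, 11.8, 13.7 and 13.3 CPM in G793A control libraries (−0.30 ± 0.11, adjusted p = 0.364). F13a1, a coagulation factor subunit of macrophages, had −0.75 ± 0.28, also without overlap. In WT mice 9 of the 10 fell on PLX3397, with a median of −2.06, and the difference between genotypes passed for 4 of 10, among them Mrc1 at 3.39 (95% interval 2.63 to 4.14). G793A mice on PLX5622 had a median of −0.24 for the list against the same controls, with 9 of 10 below 0. Against G793A mice on PLX5622 the median of the list was −0.26, with 0 of 10 past the threshold or at an unadjusted p under 0.05 (6.85% of all genes).

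The 241 genes that fell in WT mice on PLX3397 (1.49%) were followed into the mutant mice. Their median was −1.31 in WT mice, from the contrast that chose them, and −0.21 in G793A mice, or −0.13 without G793A control replicate 3. In G793A mice 218 of them (90.5%) were below 0, where 49% of all genes were. In G793A mice on PLX5622, against the same controls, 213 (88.4%) were below 0, with a median of −0.185. PLX3397 against PLX5622 gave a median of 0.001. On PLX3397, 48 of the 241 were lower (5.7% of all genes were) and 0 higher (6.02%) at an unadjusted p under 0.05. The groups did not overlap for 38 lower (2.12% of all genes) and 1 higher (1.92%). Of the 241, 0 passed in edgeR or limma-voom and 1, Ccnd1, in DESeq2. The change in G793A mice was smaller in size than that in WT mice for 239 of the 241. The test of the difference between genotypes passed for 89 of the 241 (36.9%, against 0.555% of all genes). Both counts use the WT values that chose these genes, so a smaller change in G793A mice was favoured in advance. The 10 genes of smallest p in WT mice included Pld4, a phospholipase-family exonuclease of microglia, with −0.20 ± 0.14 in G793A and −2.33 ± 0.17 in WT mice, and Cd53, a leukocyte tetraspanin, with −0.23 ± 0.14 in G793A and −1.95 ± 0.16 in WT mice. The 6 genes that rose in WT mice (0.037%) had a median of 0.42 there and 0.14 in G793A mice.

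**Figure D3:**
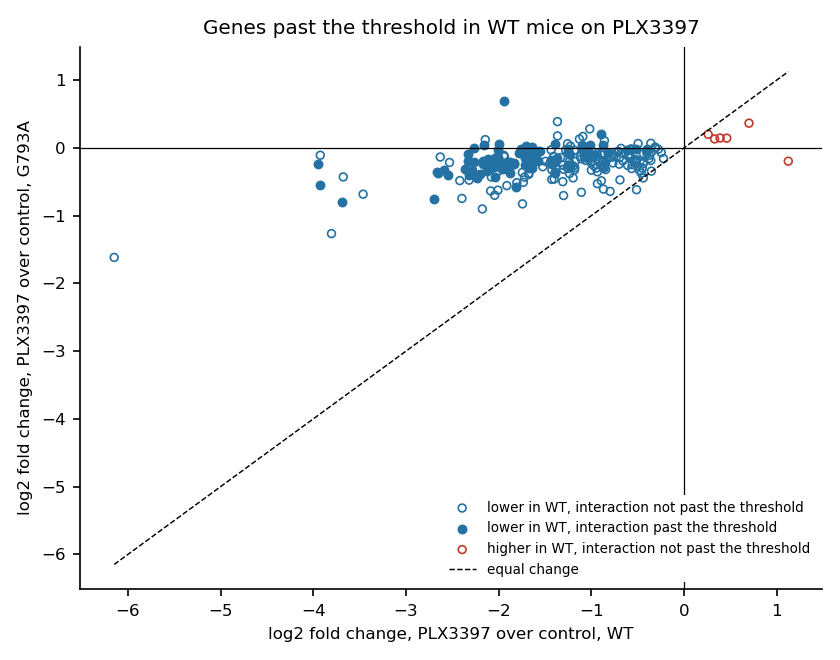
Log2 fold change of PLX3397 over control chow in WT mice (x axis) and in G793A mice (y axis) for the 247 genes past the threshold in WT mice, with filled points where the difference between genotypes passed and a dashed line of equal change. The lower genes lie mostly just below 0 in G793A mice, with a median of −0.21.

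The genotypes differed for 90 genes in all (0.555%), 89 with a higher effect in G793A mice (0.549%), all among the genes that fell in WT mice, and 1 with a lower effect. That gene was Npbwr1, a neuropeptide receptor, named after its value was seen. It had 1.75, 1.41, 1.33 and 1.64 CPM in G793A PLX3397 libraries and 2.31, 2.21, 1.87 and 2.41 CPM in G793A control libraries, without overlap. In WT mice it had 2.66, 2.31, 2.24 and 2.74 CPM on PLX3397 and 1.97, 1.96 and 1.68 CPM on control chow. The effect in G793A mice, −0.53, was lower than that in WT mice, 0.41, by −0.94 (95% interval −1.37 to −0.50, adjusted p = 0.0387), and Npbwr1 passed in neither genotype alone.

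Of the genes of smallest p outside these groups, Il10rb, a receptor chain for interleukin 10, had −0.44 ± 0.10 in G793A mice (adjusted p = 0.209) with 5.56 to 7.37 CPM in G793A PLX3397 libraries and 7.83 to 10.2 CPM in G793A control libraries. In WT mice it fell by 0.44 ± 0.10 (adjusted p = 0.0225). Parp9, an interferon-inducible member of the PARP family, had −0.53 ± 0.12, and Rpa3, a subunit of the single-strand DNA-binding replication protein A, had −0.53 ± 0.11. Both missed the threshold at an adjusted p of 0.209. The genes of this paragraph were chosen among those whose groups did not overlap. The transmembrane protein gene Tmem128 had −0.27 ± 0.06, Wwc1, a scaffold of Hippo signalling, had −0.25 ± 0.05, and Caskin2, a scaffold protein, had −0.33 ± 0.07. DESeq2 called the last 3 genes, at adjusted p-values of 0.0259, 0.0152 and 0.0314. In G793A mice on PLX5622, Il10rb and Caskin2 also lay below every G793A control library. Parp9, Rpa3, Tmem128 and Wwc1 overlapped with the controls there.

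On the higher side none passed in edgeR. Pcdha12, a protocadherin of neuronal surfaces, had the smallest p, with 26.3, 29.9, 24.1 and 26.9 CPM in G793A PLX3397 libraries against 19.7, 23.7, 20.7 and 20.8 CPM in G793A control libraries (0.33 ± 0.07, adjusted p = 0.194). Pcdhga11, of the gamma cluster, had 0.29 ± 0.06. Protocadherins of a cluster share their last exons, so the division of reads among them is uncertain. Foxred2, an endoplasmic reticulum oxidoreductase, had 0.29 ± 0.06, Erbb4, the neuregulin receptor of interneurons, had 0.29 ± 0.07, and Plvap, a diaphragm protein of fenestrated endothelium, had 0.35 ± 0.09. Mdn1 and Nop58, which act in ribosome assembly, had 0.53 ± 0.13 and 0.27 ± 0.07, Prkdc, a DNA repair kinase, had 0.39 ± 0.10, and Gne, an enzyme of sialic acid synthesis, had 0.18 ± 0.04. The groups did not overlap for any of these 9 genes, which is how they were chosen. DESeq2 called Pcdha12, Foxred2, Pcdhga11, Mdn1 and Nop58. In G793A mice on PLX5622, Foxred2, Plvap, Nop58, Prkdc and Gne also lay above every G793A control library. Pcdha12, Pcdhga11, Erbb4 and Mdn1 overlapped with the controls there.

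Immediate early genes, which neurons switch on within minutes of firing, were high in 2 of the 4 G793A PLX3397 libraries. Npas4 stood at 8.04, 185, 16.2 and 214 CPM in G793A PLX3397 libraries, against 26.7, 15.3, 19.4 and 10.9 CPM in G793A control libraries. Fos stood at 38.3, 287, 54.6 and 369 CPM in G793A PLX3397 libraries and at 55.0, 61.5, 63.3 and 24.3 CPM in G793A control libraries. Replicates 2 and 4 were high and replicates 1 and 3 lay near or within the controls. All 12 genes of the list were above 0 (51% of all genes were), with a median of 0.88 and 6 at an unadjusted p under 0.05, and none passed in edgeR, DESeq2 or limma-voom. Without replicate 4 the median was 0.57, and without replicates 2 and 4 it was −0.03, with Fos at −0.14 and Npas4 at −0.58. Pdgfra kept its call without these libraries. Ccl3, a chemokine, stood at 0.135, 4.15, 0.194 and 3.35 CPM in G793A PLX3397 libraries and at 0.207 CPM or less in G793A control libraries, high in the same 2 libraries. Npas4 and Fos were also high in WT PLX3397 replicate 1, at 152 and 262 CPM, and in G793A PLX5622 replicate 2, at 139 and 122 CPM. In WT mice on PLX3397 all 12 immediate early genes were above 0, with a median of 0.92. In G793A mice on PLX5622, 9 of the 12 were above 0, with a median of 0.17.

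Of 11 glucocorticoid response genes 10 were above 0 with a median of 0.33, 5 were higher at an unadjusted p under 0.05, and none passed in edgeR, DESeq2 or limma-voom. Without G793A PLX3397 replicate 4 the median was 0.16. Sgk1, a kinase induced by glucocorticoids, had 166, 98.6, 73.4 and 165 CPM in G793A PLX3397 libraries, all above the 56.7, 51.9, 70 and 43.3 CPM of the G793A control libraries (1.18 ± 0.34, adjusted p = 0.333). Tsc22d3, which encodes the glucocorticoid-induced leucine zipper, had 0.39 ± 0.13, Fkbp5, a chaperone of the glucocorticoid receptor, had 0.19 ± 0.06, and Nfkbia, the inhibitor of NF-kappa-B, had 0.57 ± 0.19. Of 14 clock genes 9 were above 0 and 5 below with a median of 0.11, 5 were higher and 1 lower at an unadjusted p under 0.05, and none passed in edgeR, DESeq2 or limma-voom. The clock repressor Per1, itself an early response gene, had 107, 71.6, 76.7 and 105 CPM in G793A PLX3397 libraries and 55.6, 46.5, 68.2 and 51.4 CPM in G793A control libraries (0.70 ± 0.20, adjusted p = 0.333). Ciart, another clock repressor, had 8.04, 9.21, 11.4 and 16.5 CPM in G793A PLX3397 libraries and 7.41, 6.10, 5.94 and 6.56 CPM in G793A control libraries (0.78 ± 0.19, adjusted p = 0.287). Neither gene overlapped between groups. In WT mice on PLX3397 10 of the 11 glucocorticoid genes were above 0, with a median of 0.23 and none past the threshold. Of the 14 clock genes 11 were above 0 there, with a median of 0.11, and 2, Dbp and Usp2, passed. WT mice had 14.4, 12.6, 9.40 and 10.9 CPM of Ciart on PLX3397 and 6.09, 8.67 and 6.22 CPM on control chow. The hour of collection is not in the labels, and its part in these values was not tested.

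**Figure D4:**
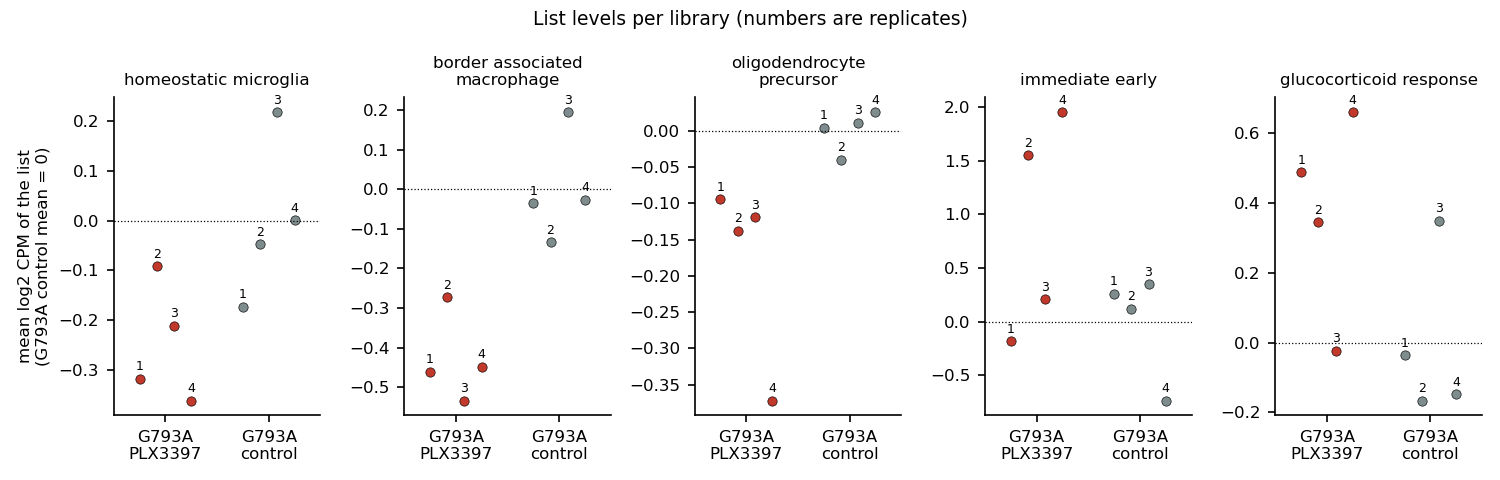
Mean log2 CPM of 5 gene lists in each library, set to 0 at the mean of G793A controls, with replicate numbers beside the points. The border-associated macrophage and precursor lists do not overlap between G793A PLX3397 and G793A control libraries, and the immediate early list is high in replicates 2 and 4 on PLX3397.

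Of 12 antigen presentation genes 12 were below 0, with a median of −0.16 and 4 at an unadjusted p under 0.05. In G793A mice on PLX5622, against the same controls, 10 of the 12 were below 0, with a median of −0.269. On PLX3397 the class II genes H2-Aa, H2-Ab1 and Cd74, the invariant chain, did not overlap with G793A controls. They had −0.83 ± 0.34, −0.70 ± 0.26 and −0.66 ± 0.24, with adjusted p-values of 0.389, 0.364 and 0.364. In WT mice these 3 fell. Of 15 interferon-stimulated genes 3 were lower at an unadjusted p under 0.05 in G793A mice on PLX3397 and the median was −0.21. On PLX5622, against the same controls, the median of this list was −0.095. In edgeR, DESeq2 and limma-voom no member of either list passed in G793A mice.

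Genes of other cells that these samples hold differed by small amounts, and none of the members named here passed in edgeR, DESeq2 or limma-voom. All 12 astrocyte genes were below 0, with a median of −0.12 and 2 at an unadjusted p under 0.05, one of them the water channel gene Aqp4 (−0.28 ± 0.12). Of 12 endothelial genes 4 were lower at an unadjusted p under 0.05, and the median was −0.14. The tight junction gene Cldn5 had −0.30 ± 0.13, and the receptor kinase genes Kdr, Tie1 and Tek had −0.30 ± 0.12, −0.24 ± 0.11 and −0.19 ± 0.08. Among 10 mural genes Rgs5, a regulator of G-protein signalling in pericytes, did not overlap between groups, at −0.26 ± 0.08. In G793A mice on PLX5622, against the same controls, the medians were −0.135 for astrocyte, −0.174 for endothelial and −0.191 for mural genes. PLX3397 against PLX5622 gave medians of −0.018, 0.075 and 0.104 for these lists, so their shifts were not particular to PLX3397. Pdgfra is also expressed by perivascular fibroblasts, whose 9 other genes, such as Col1a1 and Dcn, had none at an unadjusted p under 0.05, all below 0 and a median of −0.14. They summed to between 120 and 143 CPM in G793A PLX3397 libraries and between 125 and 159 CPM in G793A control libraries, and their part in the Pdgfra level was not tested. On PLX5622, against the same controls, the median of the 9 fibroblast genes was −0.055.

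Of 12 neuronal genes 11 were above 0 with a median of 0.14. In G793A mice on PLX5622, against the same controls, 10 of the 12 were above 0, with a median of 0.088. On PLX3397,  2 of the neuronal genes had an unadjusted p under 0.05. Gad1, which makes GABA, had 0.24 ± 0.09 and Syt1, the synaptic calcium sensor, had 0.22 ± 0.08, both at an unadjusted p under 0.05 and neither past the threshold. Transcripts of blood cells varied between libraries. The haemoglobin gene Hbb-bs, whose reads can be shared with its paralogue, had 91.7, 28.6, 32.3 and 41.2 CPM in G793A PLX3397 libraries and 100, 56.3, 79.8 and 204 CPM in G793A control libraries and the 5 red blood cell genes lay below 0. Of the 6 granulocyte and monocyte genes tested, S100a9 was at 4.61, 3.22, 0.339 and 3.62 CPM in G793A PLX3397 libraries and at 0.397 to 1.05 CPM in G793A control libraries. The medians of the blood lists had opposite signs in G793A mice, −0.90 and 1.21. In WT mice on PLX3397 they were −1.97 and 1.19. All 5 red blood cell genes were lower there without overlap, as were 992 of all 16209 genes. One of the 5, Hba-a2, passed the threshold. The part of blood left in the tissue, in these values and in the results above, was not tested. Mast cell genes, which KIT would mark, were too low to test, with 5 genes summing to at most 0.566 CPM in any library of the 2 groups.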

How the data were processed

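Brain RNA was sequenced. Per the labels' protocols, mRNA was selected with oligo-dT beads, libraries were stranded, and a NovaSeq 6000 was used. Tools listed in the submitters' processing notes are kallisto 0.46.1, FastQC 0.11.9 and DESeq2 1.26.0, with the build GRCm39. The step from transcripts to genes was not given. The authors deposited estimated counts per gene symbol (22310 genes, and 1 blank entry that was left out), of which 45.3% are not whole. The authors' deposited variance-stabilised table, on a log2 scale with 15577 entries, served only as an alternative.

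Counts were rounded and fitted with edgeR 4.0.16 (R 4.3.3): TMM scaling, filterByExpr (minimum count 10, minimum total count 15), 16209 genes, and a robust quasi-likelihood model of the 6 groups in 23 libraries. The two-sided p-values were adjusted by Benjamini and Hochberg's method across the 16209 genes, with 0.05 as threshold. Adjusted p-values are edgeR's unless another tool is named. Each SE was the size of the log2 fold change over the square root of F. The common biological coefficient of variation was 0.0998, and the fit was tested on simulated counts. Transcript lengths and GC content, matched by symbol for 99.4% of genes, came from another build.

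The comparison and the 32 gene lists were chosen with earlier results of these data known. Named genes were precursor genes, type III receptor kinases and ligands, genes past the threshold, the 10 of smallest p in each direction without overlap at 1 CPM or more, the 4 of smallest p per list, and the 10 of smallest p in WT mice. Not all are described, and 2 list members are not reported here by name. Alternatives were RLE scaling, other filters, a non-robust fit, DESeq2 1.42.0, limma 3.58.1 (voom, or the variance-stabilised values), the replicate block, fewer libraries, and removal of a trend along length and GC content. Leaving out 2 libraries with high Npas4 was chosen after seeing the data. Replicates of these groups differed beyond counting noise (chi-square per degree of freedom 8.5 or more).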

Additional observations from a re-analysis of the deposited data

Results flagged for a closer look

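The effect of PLX3397 differed between G793A and WT mice in the interaction test for these genes, each given as the log2 effect in G793A minus that in WT. Among microglial and pan-myeloid genes the differences were 1.881 for Csf1r, 2.264 for P2ry12, 2.143 for Siglech, 2.302 for P2ry13, 1.789 for Aif1, 1.786 for Ly86 and 1.713 for Cd53. Among border-associated macrophage genes they were 3.385 for Mrc1, 1.801 for Stab1 and 1.954 for F13a1. Other genes of small p in WT mice gave 2.131 for Pld4, 0.982 for Vsir, an inhibitory immune receptor, and 1.147 for Slco2b1, an organic anion transporter. For Npbwr1 the difference was −0.936. In G793A mice alone none of these 14 genes passed the threshold in edgeR.

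Single libraries stood apart from the other 3 of their group for some genes, a gap that chance gives in about 1 of 20 groups. In G793A mice on PLX3397, replicate 3 was highest for Gad1 (621.0 CPM) and lowest for Rgs5 (64.9 CPM) and Tek (13.6 CPM), and replicate 4 was highest for Syt1 (1890.0 CPM). In G793A controls, replicate 3 was highest for Csf1r (88.4 CPM), Csf1 (22.6 CPM) and Tek (19.6 CPM) and lowest for Foxred2 (16.6 CPM), replicate 4 was lowest for Cacng4 (44.4 CPM) and replicate 1 was lowest for Prkdc (15.4 CPM).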

How the results depend on the processing

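Pdgfra was lower in G793A mice on PLX3397 in all 20 alternatives (log2 fold change −0.589 to −0.438, adjusted p 2.56e-07 to 0.697) and past the threshold in 16. Replicate numbers do not pair the libraries (correlations of same-numbered deviations 0.00495, −0.131, −0.111 and −0.0657), and with the replicate block 1 gene, Pdgfra, was called. The count of genes called was 18 with DESeq2, 0 on the authors' VST values, 0 with only the compared groups, 0 with only the 3 G793A groups, and 0 to 23 with a library left out. Against PLX5622 it was 2, 0 and 0 with DESeq2, the compared groups and the 3 G793A groups, and 0 to 1 with a library left out. For PLX5622 against control chow it was 215 with DESeq2 and 0 to 980 with a library left out, the highest without G793A control replicate 2. The VST values gave 58 differences between genotypes, a median of −0.078 for border-associated macrophage genes and of −0.073 for the genes that fell in WT mice.

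With a library left out the precursor median ran from −0.217 to −0.067, Sox10 from −0.067 to 0.026, Csf1 from −0.016 to 0.05, the Ccnd1 difference between genotypes from −0.062 to 0.072 and Pdgfra on PLX5622 from −0.047 to 0.038. The median ran from −0.276 to −0.136 for homeostatic microglia, −0.321 to −0.146 for pan-myeloid and 0.163 to 0.454 for glucocorticoid response genes. Signs also turned for Sox10 (0.001, VST), Pdgfra on PLX5622 (0.044, VST), Csf1 (−0.001, length and GC; −0.004, VST), Il34 (0.001, length and GC) and the Ccnd1 difference (−0.011, replicate block; −0.024, length and GC; −0.031, VST). Without G793A PLX3397 replicates 2 and 4 the immediate early median was −0.033, Fos −0.137, Npas4 −0.577, Dusp6 −0.02 and Csf1 −0.025. Of 1909 values for named genes under alternatives, 1856 kept direction and side. The cause of the shifts was not tested.

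With 4 libraries a group, differences within the intervals given could not be resolved, and a missed threshold does not show that levels were equal. The control libraries also enter the comparison with PLX5622. Chow intake, tissue levels of the inhibitor and brain region are not in the labels.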
